A study of Mus musculus with 15 samples.

Results

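The 3 bulk liver libraries labelled LATS KO 4, 5 and 6 were compared with the 3 control libraries labelled TdTomato 2, 3 and 4, over all genes of the count tables. These are 6 of the 15 libraries of a mouse study titled for inflammatory monocytes and YAP-induced proliferation, which also holds TdTomato 1, LATS KO 1, 2 and 3 and Yap OE 1 to 5. TdTomato 1 and LATS KO 3 had most reads unmapped, at 78.5% and 89.9%, and levels given below for LATS KO 3 carry that limit. The 3 LATS KO libraries and the 3 controls were chosen by their titles, and each of the 6 had under 20% unmapped reads. LATS KO 1 and 2 also lay under that share, at 3.46% and 4.95%, and were left out because their YAP targets were known to be far higher. The choice of LATS KO 4, 5 and 6 was therefore not independent of gene levels, and the p-values below describe these 6 libraries and not LATS loss at large.

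The series describes its liver tissue as wild type, Lats KO or Yap over expression. TdTomato names a red fluorescent protein, and OE is read as the over expression of the series text. The labels give no strain, age, sex, diet, time point, Cre driver or promoter for these libraries, and their extraction text describes other mice. It is not stated which of Lats1 and Lats2 was deleted, in which cells, or for how long, nor whether each library came from its own animal. If it did not, the spread that the p-values rest on is technical.

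Poly(A) RNA was sequenced from a directional kit, and the deposited counts of the reverse strand were used. The 6 libraries held 15934475 to 27508698 counts over 24411 genes. Of mapped reads, 17.2%, 25.8% and 20.8% fell outside annotated genes in LATS KO 4, 5 and 6, against 6.68%, 9.93% and 6.57% in TdTomato 2, 3 and 4. Reads mapping to several places were also more frequent, at 11.2%, 11.7% and 14.3% of mapped reads against 7.25%, 8.16% and 9.14%. These shares moved with the groups, and their part in the results was not tested. Levels below are CPM, the counts of a gene scaled to the library's total with TMM factors, differences are log2 of LATS KO 4-6 over TdTomato 2-4 with a standard error (SE), and a gene was called at an adjusted p under 0.05 in edgeR's quasi-likelihood test with Benjamini-Hochberg adjustment.

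LATS1 and LATS2 are the kinases at the end of the Hippo cascade. They phosphorylate YAP and its paralog TAZ, which are then held in the cytoplasm or degraded. When the kinases are inactive, YAP and TAZ enter the nucleus, bind the TEAD transcription factors and raise genes of growth, matrix and cell shape. In hepatocytes, sustained YAP activity is known to drive proliferation and a biliary or progenitor programme, and it induces secreted factors that act on macrophages and stellate cells.

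Lats1 (chr10:7681214-7716460, mm10) was at 44.5, 46.0 and 28.7 CPM in TdTomato 2, 3 and 4 and at 27.4, 18.1 and 22.3 CPM in LATS KO 4, 5 and 6. All 3 LATS KO libraries lay below all controls, but the difference of -0.77 ± 0.22 (log2, SE) did not pass the test (edgeR adjusted p = 0.0529). LATS KO 1 and 2 lay lower still, at 14.5 and 10.5 CPM. Lats1 has 7297 exon bases, which bears on the trend with gene length given after the chaperones. Tested genes with over 6000 exon bases had a median difference of -0.30 (log2). Lats2 (chr14:57689662-57758388) was at 19.6, 19.1 and 17.4 CPM in the controls and at 16.9, 17.3 and 14.0 CPM in LATS KO 4, 5 and 6, without a call. Lats2 is itself a YAP target, and it stood at 48.8 to 62.2 CPM in the Yap OE libraries. A deletion of a few exons leaves reads from the rest of the transcript, so gene totals check these labels only in part.

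Neither substrate of the kinases was called. Yap1 (chr9:7931999-8004596) stood at 115, 103 and 103 CPM in the controls and at 86.3, 81.1 and 76.6 CPM in LATS KO 4, 5 and 6, a difference of -0.36 ± 0.14 (log2, SE; edgeR adjusted p = 0.13). Wwtr1, which encodes TAZ, was at 15.9, 18.2 and 9.58 CPM and at 22.3, 17.7 and 16.0 CPM. The groups overlapped for Wwtr1 (edgeR adjusted p = 0.336), whereas for Yap1 each of the 3 LATS KO libraries lay below every control.

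Of 26 Hippo components and TEAD factors, 23 had enough reads to be tested, 2 were called higher and 1 lower. These counts are close to the shares over all genes tested, 10.1% higher and 4.17% lower, so nothing is read from them about the pathway. Map4k4, a kinase that acts upstream of LATS, rose from 5.41, 8.74 and 6.75 CPM to 16.9, 12.2 and 10.2 CPM. Taok1, which activates the MST kinases, fell from 63.0, 63.8 and 43.1 CPM to 33.9, 28.3 and 31.7 CPM. Amotl1, an angiomotin that binds YAP, was the other called higher. It is also on the list of YAP/TEAD targets, whose level had a part in the choice of libraries. Both kinase calls were fragile: that of Map4k4 was lost without LATS KO 4, LATS KO 5, TdTomato 2 or TdTomato 4, and that of Taok1 without LATS KO 5, TdTomato 2 or TdTomato 3. Taok1 has 12421 exon bases, and its difference of -0.82 (log2) shrank to -0.25 with offsets for exon length and to -0.30 with the library number as a block, both without a call (edgeR adjusted p = 0.219 and 0.2). With 1 library left out, 1 to 4 members were higher and 0 to 4 lower.

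The YAP/TEAD target genes are given with no p-value, since earlier knowledge of their level had a part in the choice of libraries, and counts of those called are a description that supports nothing. Amotl1, Birc5, Gpc3, Lats2, Spp1 and Tead1 are also counted in other lists, where the same limit holds for them. TEAD factors bind DNA through the core letters GGAATG. RefSeq promoters (GRCm38.p6) were searched over the 250 bases before the start for GGAATG on either strand, written CATTCC when it lies on the other one. Of the 13 targets called higher, 11 matched RefSeq entries, with 12 promoters, and 5 of the 12 (41.7%) held the core, against 12.6% of all 32851 promoters and 10.7% of the promoters of tested genes. The 5 are those of Ankrd1, Anxa1, Axl, Crim1 and Cyr61. Over all 26 members of the list, called or not, 8 of 22 promoters (36.4%) held it, so the share describes the list as much as the calls. The promoters of Cyr61 (chr3:145649986-145650235, minus strand) and Ankrd1 (chr19:36119845-36120094, minus strand) are shown because both encode classical YAP targets, with the TEAD core in capitals, 103 bases before the start of Cyr61 and 210 and 123 bases before that of Ankrd1. A match describes letters, not binding.
Cyr61: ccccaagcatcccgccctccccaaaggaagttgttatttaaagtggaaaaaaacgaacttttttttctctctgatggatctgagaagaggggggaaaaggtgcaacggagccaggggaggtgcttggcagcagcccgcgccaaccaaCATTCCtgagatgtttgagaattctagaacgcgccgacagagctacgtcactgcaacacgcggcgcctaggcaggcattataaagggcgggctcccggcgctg
Ankrd1: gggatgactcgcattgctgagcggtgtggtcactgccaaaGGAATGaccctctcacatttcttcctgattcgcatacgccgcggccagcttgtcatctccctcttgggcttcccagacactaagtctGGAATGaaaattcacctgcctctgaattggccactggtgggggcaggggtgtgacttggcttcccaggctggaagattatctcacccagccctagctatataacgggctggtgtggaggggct

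Ctgf, a secreted matrix-cell protein and one of the most used YAP readouts, was at 0.166, 0.556 and 0.144 CPM in TdTomato 2, 3 and 4 and at 82.7, 41.7 and 20.6 CPM in LATS KO 4, 5 and 6. LATS KO 6, the lowest, was still far above the highest control, and the fitted difference was 7.56 ± 0.71 (log2, SE). The same gene reached 1811, 2485 and 3136 CPM in LATS KO 1, 2 and 3 and 265 to 465 CPM in the Yap OE libraries. Cyr61, its secreted relative, rose from 31.2, 32.9 and 16.6 CPM to 130, 133 and 79.8 CPM, a difference of 2.14 ± 0.30 (log2, SE). In LATS KO 1, 2 and 3 Cyr61 stood at 1048, 539 and 790 CPM.

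Ankrd1, a nuclear and sarcomeric ankyrin repeat protein, had 1 read in all 3 controls and stood at 2.63, 1.08 and 0.841 CPM in LATS KO 4, 5 and 6, a ratio of 85.6 with an exact 95% counting interval of 15 to 3417. It was at 36.6, 50.3 and 130 CPM in LATS KO 1, 2 and 3. Gpc3, a glypican of fetal liver and liver tumours, likewise had 1 control read and stood at 23.5, 12.5 and 5.71 CPM, a ratio of 775 with an interval of 139 to 30640. Both genes were thus nearly silent in the controls and low in LATS KO 4, 5 and 6 beside the 737, 1557 and 1457 CPM of Gpc3 in LATS KO 1, 2 and 3. Spp1, the secreted phosphoprotein osteopontin, rose from 19.5, 17.2 and 36.5 CPM to 184, 81.1 and 116 CPM.

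Axl and Amotl1 did not follow that order. Axl, a receptor tyrosine kinase of the TAM family, was at 0.276, 0.159 and 0.527 CPM in the controls and at 42.1, 25.3 and 14.2 CPM in LATS KO 4, 5 and 6, a difference of 6.32 ± 0.55 (log2, SE), while LATS KO 1, 2 and 3 stood at 10.2, 112 and 4.78 CPM. Axl is also expressed by macrophages. Amotl1 rose from 1.60, 1.11 and 1.53 CPM to 6.09, 5.12 and 5.17 CPM, which is above the 2.54, 2.67 and 2.89 CPM of LATS KO 1, 2 and 3.

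In all, 13 of the 21 tested targets were called higher and none lower, with a median difference of 1.96 (log2) against 0.04 over all genes tested. Across all genes, 10.1% were called higher and 4.17% lower, and nothing is read from the targets' count because the choice used this level. Anxa1, Anxa3, Birc5, Crim1, F3 and Myof were the others called. The other 8 tested targets were not called: Ajuba, Amotl2, Dlc1, Lats2, Nt5e, Nuak2, Tead1 and Wwc1. Amotl2, a feedback inhibitor of YAP, was at 34.3, 29.3 and 26.3 CPM and at 56.1, 49.8 and 32.9 CPM, and reached 583 to 683 CPM in LATS KO 1, 2 and 3. Tead1, the DNA-binding partner, overlapped between the groups, at 11, 11.5 and 5.46 CPM and at 16.3, 4.99 and 6.55 CPM, against 85.7 to 149 CPM in LATS KO 1, 2 and 3. The remaining 5 members (Ankrd2, Arhgef17, Fstl1, Ptpn14 and Tgfb2) had too few reads. Summed over the 26 members, the level was 293 to 404 CPM in the controls, 522 to 863 CPM in LATS KO 4-6 and 7700 to 10800 CPM in Yap OE.

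**Figure D1:**
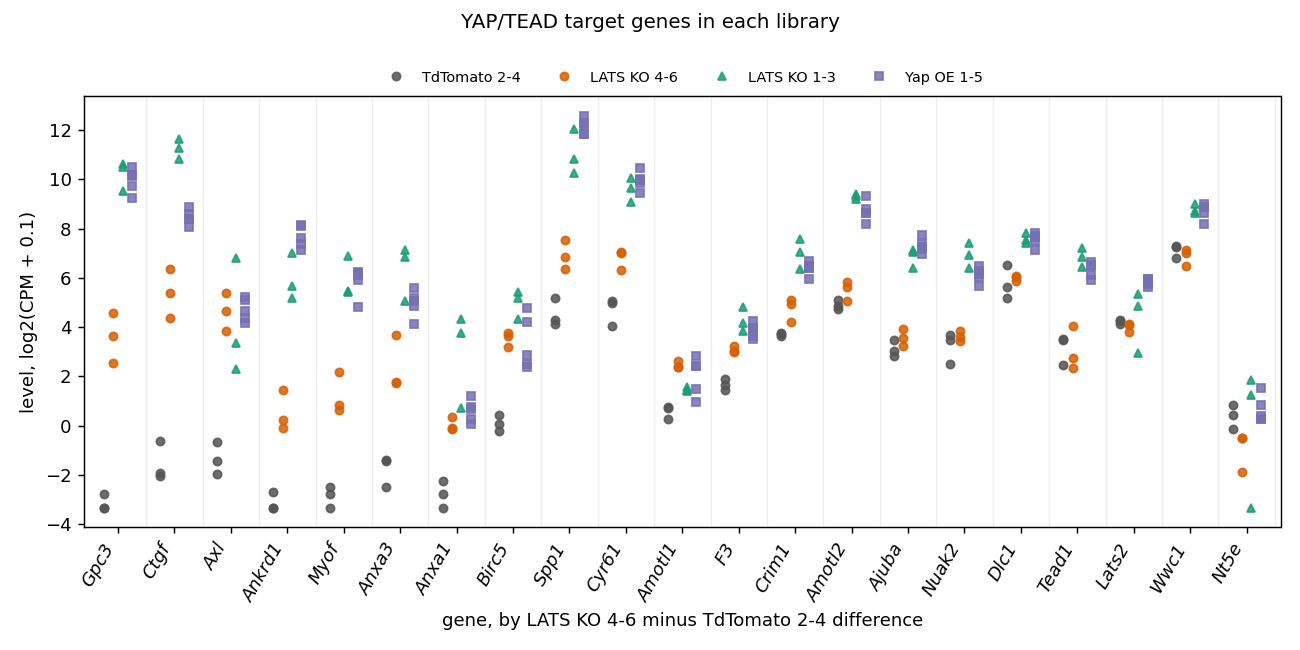
Level of each tested YAP/TEAD target in each library, as log2(CPM + 0.1), for TdTomato 2-4, LATS KO 4-6, LATS KO 1-3 and Yap OE 1-5; each point is 1 library. For Ctgf the LATS KO 4-6 points, 20.6 to 82.7 CPM, lie between the controls, all under 1 CPM, and the Yap OE points, 265 to 465 CPM, whereas for Tead1 and Lats2 they lie near the controls.

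Over all genes, 11738 passed the low-count filter and 1671 were called, 1182 higher (10.1%) and 489 lower (4.17%), so 70.7% of the calls were rises. Of the genes called higher, 534 had a control mean under 0.5 CPM and 19 had no control read. Genes near 0 in the controls passed the filter through their reads in LATS KO 4-6. Counts of list members called are to be read beside the 10.1% and 4.17% over all genes. With each library left out in turn, 845 to 1362 genes were called higher and 129 to 1024 lower. The count of falls was 129 without LATS KO 5, 153 without TdTomato 2, 256 without TdTomato 3 and 1024 without TdTomato 4. When all 10 LATS KO and TdTomato libraries were used as labelled, 1 gene was called, which was lower. These 10 include TdTomato 1 and LATS KO 3, with 78.5% and 89.9% unmapped reads, and their part in this count was not tested. With LATS KO 1, 2, 4, 5 and 6 against the same controls, 767 genes were called. Of the 127 named genes with a call, 96 kept it whichever of the 6 libraries was left out and 31 lost it without at least 1.

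The 3 LATS KO libraries were not alike. Among the 1182 genes called higher, LATS KO 4 was the highest of the 3 for 771 and LATS KO 6 the lowest for 784, against 4469 and 4850 of the 11738 genes tested. Of the 489 genes called lower, LATS KO 4 was the highest for 266 and LATS KO 6 the lowest for 252.

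Among called genes averaging at least 5 CPM with no overlap between the groups, and passing over sex-linked and a few other classes of genes (Gpc3, on the X chromosome, had a larger fitted difference of 9.08), the 12 largest rises were Ctgf, Axl and 10 genes known from macrophages and other leukocytes. Tyrobp, the adaptor of activating receptors on myeloid cells, was at 0, 0 and 0.335 CPM in the controls and at 14.0, 11.2 and 6.01 CPM in LATS KO 4, 5 and 6, a difference of 6.26 ± 0.76 (log2, SE; edgeR adjusted p = 0.00147). Spi1, the myeloid transcription factor PU.1, rose from 0.221, 0.159 and 0.144 CPM to 15.5, 9.24 and 4.99 CPM. Cd44, the hyaluronan receptor, rose from 0.166, 0 and 0.287 CPM to 16.1, 9.78 and 5.05 CPM. The others were Adgre1, C1qa, C1qc, Cd5l, Ctss, Laptm5 and Slc15a3.

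**Figure D2:**
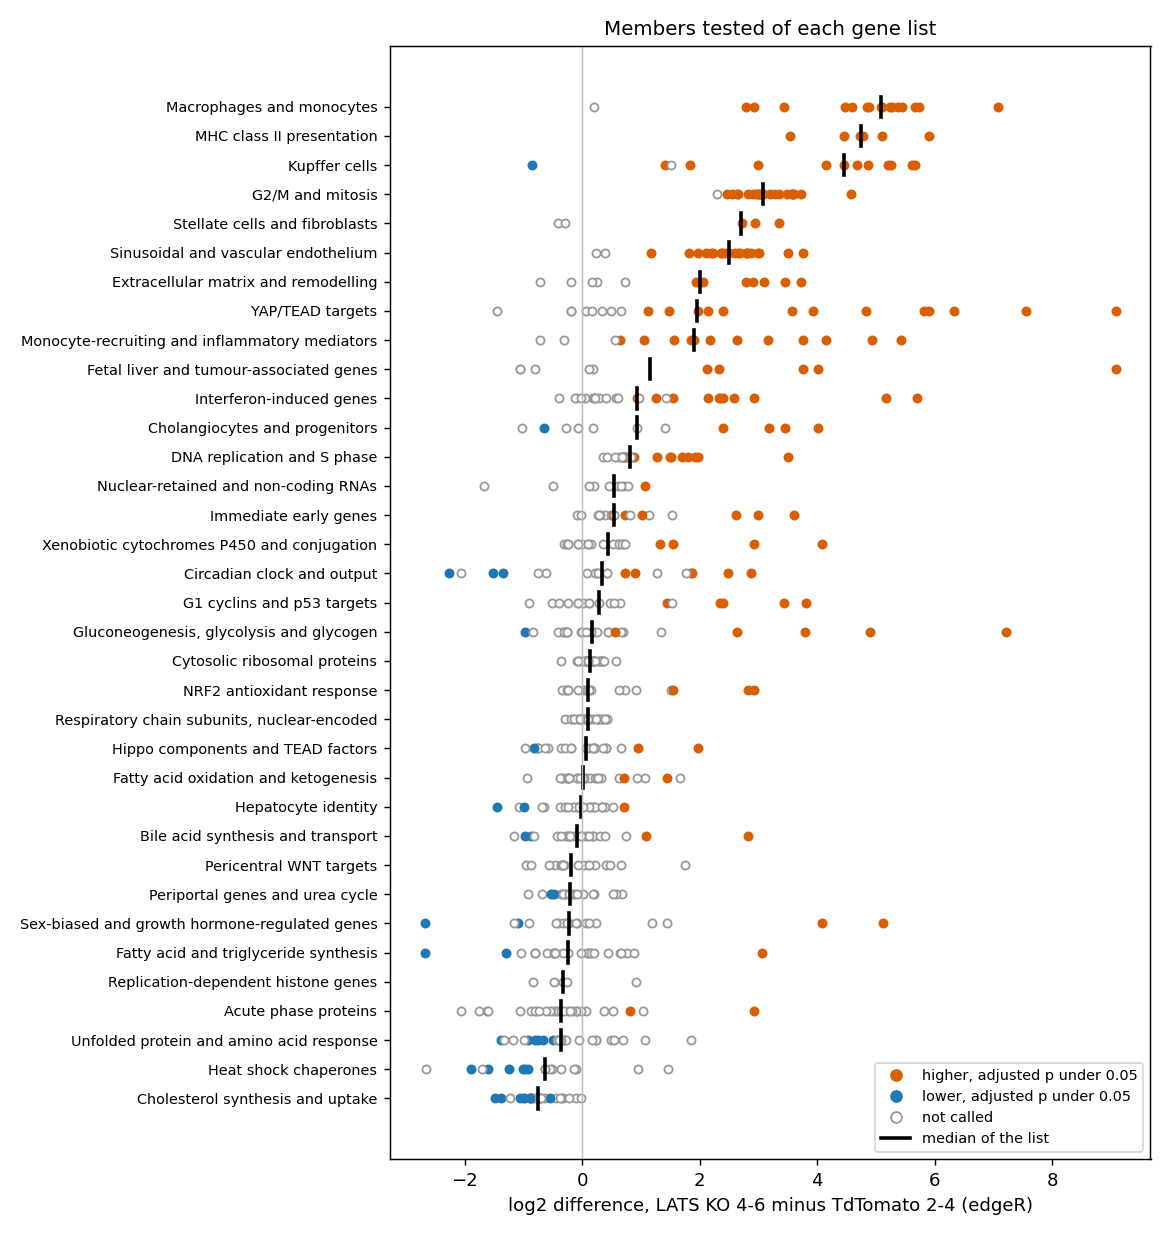
Log2 difference between LATS KO 4-6 and TdTomato 2-4 (horizontal axis) for each tested member of each list with at least 4 tested; filled points were called, and the bar is the list's median. The macrophage list has the highest median, 5.08, and the cholesterol synthesis list the lowest, -0.75.

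Resident and recruited macrophages share a core of genes, while Kupffer cells, the macrophages fixed in the liver sinusoids, carry their own receptors. In a bulk library, more cells of a type and more RNA per cell cannot be told apart. Of 13 Kupffer cell markers, 11 were called higher and 1 lower, with a median difference of 4.46. Clec4f, a Kupffer cell lectin, was at 1.38, 3.02 and 4.60 CPM in the controls and at 147, 126 and 53.4 CPM in LATS KO 4, 5 and 6, a difference of 5.20 ± 0.53 (log2, SE; edgeR adjusted p = 0.000845). Timd4, a receptor for dying cells on long-lived Kupffer cells, rose from 0.166, 0.159 and 0.239 CPM to 13.7, 9.91 and 5.05 CPM. Vsig4, a complement receptor, rose from 0.110, 0.715 and 1.34 CPM to 38.1, 30.7 and 14.8 CPM, and Folr2, a folate receptor, from 0.166, 0.477 and 0.670 CPM to 16.1, 12.8 and 9.43 CPM. In each case the lowest LATS KO library was several times the highest control. Among the members called, Cdh5 is a junction protein of endothelium, and C6, the one that fell, encodes a complement protein made by hepatocytes.

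Of 24 macrophage and monocyte markers, 17 were tested and 16 were called higher, with a median of 5.08, and over all 24 members 19 had every LATS KO library above every control. Across all genes tested, 18.4% were separated in that way. Members low in both groups were left untested, so the share called and the median over tested members lean towards rises. The same holds for the mediator and MHC class II lists below and for other lists with untested members. Csf1r, the receptor on which macrophages depend, rose from 0.772, 2.86 and 2.35 CPM to 79.8, 60.4 and 29.4 CPM (edgeR adjusted p = 0.000993). C1qa, a complement subunit made by macrophages, rose from 0.166, 0.635 and 1.72 CPM to 58.9, 52.3 and 28.4 CPM, and Lyz2, lysozyme, from 0.883, 0.953 and 2.63 CPM to 55.7, 47.7 and 27.3 CPM. Adgre1, which encodes the F4/80 antigen, rose from 0.221, 0.397 and 0.718 CPM to 24.9, 20.8 and 7.15 CPM. LATS KO 4 was the highest and LATS KO 6 the lowest of the 3 for all 16 markers called. The count stayed between 16 and 17 with any library left out.

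The monocyte recruitment axis was measurable only at low levels. Ccr2, the receptor that brings monocytes out of bone marrow, had 3 reads over the controls and stood at 4.38, 1.35 and 0.601 CPM in LATS KO 4, 5 and 6, a ratio of 41.2 with an exact 95% counting interval of 13.8 to 202. Its ligand Ccl2 had 2 control reads and stood at 3.81, 0.877 and 0.841 CPM, a ratio of 54.2 with an interval of 14.7 to 453. Ccl2 was at 41.0, 35.5 and 96.5 CPM in LATS KO 1, 2 and 3. Il1b, an inflammatory cytokine of myeloid cells, rose from 0.0552, 0.159 and 0.0958 CPM to 2.54, 5.39 and 1.5 CPM (edgeR adjusted p = 0.00278). Tgfb1, a fibrogenic cytokine, rose from 1.43, 1.19 and 1.82 CPM to 17.1, 12.9 and 9.43 CPM. In all, 12 of 15 tested members of the 26 chemokines and mediators were called higher, and 8 to 13 with 1 library left out; 8 was reached without TdTomato 2.

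Other leukocytes were close to the limit of detection. Of 12 neutrophil markers 1 was tested, and the granule genes S100a8 and S100a9 stayed at or under 0.674 CPM in all 6 libraries. Summed over the list, neutrophil markers were at 0.166 to 1.59 CPM in the controls and 2.28 to 6.00 CPM in LATS KO 4-6. Mmp9, the tested member and a protease that macrophages also make, had 2 control reads and a ratio of 27.1 with an exact 95% counting interval of 7.17 to 229. Of 22 markers of T, B, NK and dendritic cells 2 were tested. The T cell gene Cd3e had no control read and stood at 0.219, 0.270 and 0.0601 CPM in LATS KO 4, 5 and 6, and the B cell gene Cd79a was listed at 0 in LATS KO 5 and 6. Clec9a, a receptor of cross-presenting dendritic cells, had no control read and was at least 21.7-fold higher, taking 3 reads over the controls as the floor. Cd4 fell from 2.59, 2.15 and 1.96 CPM to 0.658, 0.809 and 0.661 CPM, a call lost without LATS KO 4, LATS KO 5, TdTomato 2 or TdTomato 3.

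MHC class II molecules present peptides to CD4 T cells and are made by Kupffer cells, dendritic cells and B cells. All 6 tested genes of this list of 10 were called higher, with a median of 4.75, and 9 of the 10 had separated groups. Cd74, the invariant chain, was at 2.15, 2.30 and 3.45 CPM in the controls and at 88.2, 80.8 and 37.5 CPM in LATS KO 4, 5 and 6, a difference of 4.72 ± 0.39 (log2, SE; edgeR adjusted p = 0.000583). H2-Eb1 rose from 0.441, 0.953 and 0.862 CPM to 31.7, 29.1 and 14.5 CPM. Again LATS KO 4 was the highest and LATS KO 6 the lowest for each of the 6.

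Interferon-induced genes split into a called and an uncalled share, with 11 of 25 members higher and none lower. Ifit3, an antiviral effector, rose from 4.86, 5.48 and 4.88 CPM to 14.8, 14.0 and 14.4 CPM, a difference of 1.54 ± 0.18 (log2, SE; edgeR adjusted p = 0.00135). Gbp3, a guanylate-binding protein, rose from 1.82, 2.06 and 1.96 CPM to 9.95, 11.4 and 8.65 CPM, and Oasl2 from 0.496, 0.794 and 0.575 CPM to 4.69, 5.06 and 3.91 CPM. Irf7 was called, at 32.1, 31.7 and 44.1 CPM and 59.8, 73.2 and 69.2 CPM, but not without LATS KO 5 or TdTomato 2. With LATS KO 1 and 2 added, 5 members were called.

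**Figure D3:**
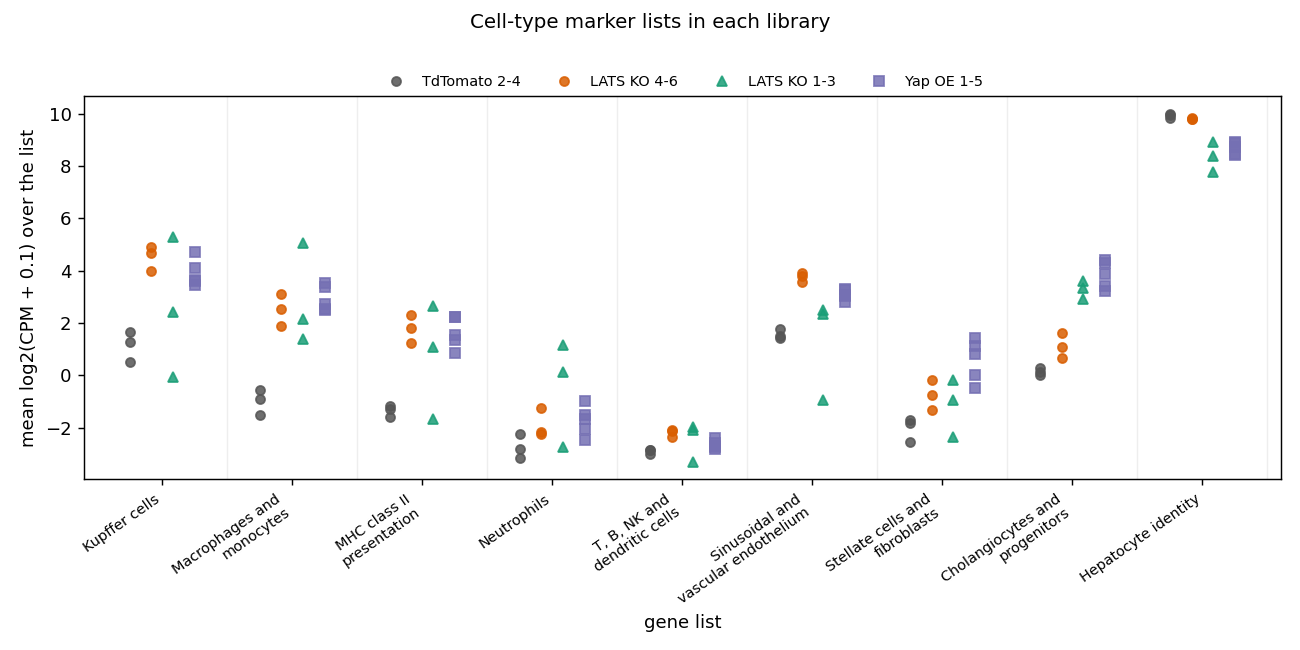
Mean log2(CPM + 0.1) over each cell-type marker list (vertical axis) in each library of TdTomato 2-4, LATS KO 4-6, LATS KO 1-3 and Yap OE 1-5; each point is 1 library. Kupffer cell, macrophage, MHC class II and endothelial lists lie higher in all 3 LATS KO 4-6 libraries than in all 3 controls, while the hepatocyte list lies in nearly the same place.

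Liver sinusoidal endothelial cells line the sinusoids beside the Kupffer cells. Of their 25 markers, 23 were tested and 21 called higher, a count of 21 with any library left out, with a median of 2.50. Clec4g, a sinusoidal lectin, was at 8.33, 6.83 and 8.28 CPM in the controls and at 49.9, 60 and 53.2 CPM in LATS KO 4, 5 and 6, a difference of 2.82 ± 0.17 (log2, SE; edgeR adjusted p = 0.000331). Lyve1, the hyaluronan receptor of sinusoids and lymphatics, rose from 0.496, 0.874 and 0.718 CPM to 7.41, 10.4 and 9.91 CPM. Bmp2, an endothelial signal that raises hepcidin in hepatocytes, rose from 3.03, 2.62 and 2.83 CPM to 17.5, 18.3 and 17.0 CPM. Stab2, a scavenger receptor, rose from 15.9, 13.0 and 6.08 CPM to 58.5, 42.1 and 31.5 CPM. Mrc1, called as well, is shared with macrophages. With LATS KO 1 and 2 added to the 3, the count of endothelial markers called was 9; there Clec4g stood at 9.41 and 2.98 CPM and Bmp2 at 6.22 and 2.21 CPM in LATS KO 1 and 2. In LATS KO 2 both genes lay below every control, and in LATS KO 1 above every control.

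Hepatic stellate cells store vitamin A and become matrix-making myofibroblasts on activation. Of 22 stellate cell and fibroblast markers 5 were tested and 3 called higher: Colec11, Dcn and Ecm1. Dcn, the proteoglycan decorin, rose from 0.828, 1.11 and 0.287 CPM to 8.29, 3.91 and 9.01 CPM (edgeR adjusted p = 0.00328). Reln, a stellate cell glycoprotein, overlapped, at 6.95, 9.45 and 0.718 CPM and 6.49, 1.42 and 4.15 CPM. Acta2, the actin of myofibroblasts, had no control read and stood at 0.439, 0.135 and 0 CPM.

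Of 28 matrix genes, 12 were tested and 7 called higher, 4 to 7 with 1 library left out; 4 was reached without LATS KO 4 or TdTomato 2. Sparc, a collagen-binding matrix protein, rose from 4.52, 3.65 and 3.97 CPM to 35.3, 25.6 and 28.8 CPM, a difference of 2.91 ± 0.20 (log2, SE; edgeR adjusted p = 4e-04). Timp3, a protease inhibitor, rose from 3.59, 3.42 and 2.11 CPM to 13.9, 11.1 and 11.8 CPM, and Bgn, biglycan, from 2.26, 1.59 and 0.527 CPM to 11.1, 8.56 and 9.19 CPM. Fibrillar collagen stayed low: Col1a1 had no control read and stood at 1.45, 0.337 and 0.240 CPM in LATS KO 4, 5 and 6. Col3a1 was at 0.0552, 0.318 and 0 CPM and at 0.965, 1.15 and 0.601 CPM, a call that ended without LATS KO 4, LATS KO 5, LATS KO 6, TdTomato 2 or TdTomato 4.

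Genes of division rose in LATS KO 4-6. Mitotic genes are switched on together from G2 onwards by the MuvB complex with B-Myb and FOXM1, and CCAAT boxes bound by NF-Y recur in their promoters. All 24 genes of the G2/M list were tested, 23 were called higher, and for all 24 every LATS KO library lay above every control. The median difference was 3.07, and 19 to 23 genes were called with 1 library left out. Birc5, 1 of the 23, is also on the YAP/TEAD target list, from which nothing is read. Ccnb2, a cyclin of mitotic entry, was at 0.772, 2.06 and 0.958 CPM in the controls and at 13.8, 16.0 and 13.5 CPM in LATS KO 4, 5 and 6, a difference of 3.59 ± 0.35 (log2, SE; edgeR adjusted p = 0.000795). Ube2c, the ubiquitin-conjugating enzyme of the anaphase-promoting complex, rose from 1.05, 1.11 and 0.383 CPM to 9.25, 8.36 and 9.49 CPM. Mki67, the proliferation antigen, rose from 4.52, 3.50 and 0.479 CPM to 29.9, 16.2 and 14.5 CPM. The lowest control was TdTomato 4 for both Mki67 and Ube2c. Ccnb1, at 1.71, 1.75 and 0.0958 CPM and 10.1, 10.7 and 7.39 CPM, lost its call without LATS KO 5.

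The letters CCAAT, or ATTGG for the other strand, stood in 18 of 20 promoters (90%) of the 19 matched mitosis genes called higher, against 33.8% of all promoters and 35.5% of those of tested genes. The CHR element, TTTGAA or TTCAAA, stood in 8 of the 20 (40%), against 16% and 10.9%. Over all 24 members of the list the shares were 90.5% for CCAAT and 38.1% for CHR, so they describe the list as much as the calls. The Ube2c promoter (chr2:164769679-164769928, plus strand) is shown for its 6 CCAAT matches, in capitals, at 228, 186, 183, 155, 88 and 57 bases before the start. Those at 186 and 183 lie on opposite strands, share bases and stand in the same stretch of capitals.
Ube2c: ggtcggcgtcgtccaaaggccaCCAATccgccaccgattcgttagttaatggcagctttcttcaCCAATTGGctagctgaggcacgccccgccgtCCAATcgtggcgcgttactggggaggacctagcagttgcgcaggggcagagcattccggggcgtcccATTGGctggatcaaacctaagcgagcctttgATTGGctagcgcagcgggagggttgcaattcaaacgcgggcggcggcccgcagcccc

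DNA replication genes rose less. Of 24, 23 were tested and 11 called higher, with a median of 0.81, and the count fell to 3 without LATS KO 5, 4 without LATS KO 4 and 5 without TdTomato 3. Mcm5, a subunit of the replicative helicase, rose from 4.14, 3.10 and 1.96 CPM to 16.6, 11.3 and 7.09 CPM, a difference of 1.98 ± 0.38 (log2, SE; edgeR adjusted p = 0.00946). Rrm2, which supplies deoxynucleotides, rose from 5.35, 4.92 and 4.55 CPM to 18.0, 15.8 and 13.3 CPM. Pcna, the sliding clamp, did not pass the test, at 26.0, 24.5 and 36.5 CPM and 38.3, 43.1 and 49.3 CPM (edgeR adjusted p = 0.0825). Mcm2 also missed it, at 6.18, 4.45 and 2.30 CPM and 9.82, 6.61 and 4.63 CPM (edgeR adjusted p = 0.256).

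Among 20 G1 cyclins and p53 targets, 19 were tested and 5 called higher: Ccnd1, Ccnd2, Gtse1, Phlda3 and Tnfrsf10b. Ccnd2, a D-type cyclin, rose from 1.10, 0.635 and 0.527 CPM to 4.91, 3.37 and 2.94 CPM. Ccnd1, the D-type cyclin of hepatocytes, was at 39.3, 31.9 and 13.4 CPM and at 82.6, 88.5 and 50.8 CPM, a call lost without LATS KO 4, LATS KO 5 or TdTomato 3. Cdkn1a, the p21 inhibitor, was at 4.63, 7.94 and 8.19 CPM in the controls and at 9.08, 4.72 and 5.35 CPM in LATS KO 4, 5 and 6, with overlapping groups (edgeR adjusted p = 0.915), and at 137, 118 and 63.4 CPM in LATS KO 1, 2 and 3. Immediate early genes gave 6 calls of 19 tested, 2 without TdTomato 2. Klf2 and Klf4, factors of endothelium and myeloid cells, rose, whereas Fos (129, 126 and 25.6 CPM against 140, 119 and 98.6 CPM) and Egr1 overlapped.

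Biliary and fetal programmes moved in a few members. Of 19 cholangiocyte and progenitor markers, 11 were tested, 4 called higher and 1 lower. Spp1, 1 of the 4, is also on the YAP/TEAD target list, from which nothing is read. Sox4, a progenitor transcription factor, rose from 0.441, 0 and 0.287 CPM to 4.60, 1.15 and 2.82 CPM (edgeR adjusted p = 0.0185). Sox9, the factor of biliary identity that YAP is known to raise, overlapped between the groups at 14.1, 6.75 and 8.86 CPM and 12.8, 10.1 and 10 CPM, and stood at 159, 62.9 and 47.7 CPM in LATS KO 1, 2 and 3. Krt19 and Epcam, which define cholangiocytes, had too few reads to be tested; Krt19 was at 3.11, 0.0674 and 0.180 CPM in LATS KO 4, 5 and 6, so 1 library carried it. Of 18 fetal and tumour genes, 10 were tested and 5 called higher, Gpc3 and Cd24a among them, while Afp stayed at 1.16, 1.11 and 1.53 CPM and 0.789, 1.42 and 2.10 CPM. Gpc3 is on the YAP/TEAD target list too. Cd24a, a surface antigen of progenitor cells, had 3 control reads, all in TdTomato 2, and a ratio of 17.7 with an exact 95% counting interval of 5.77 to 88.6.

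Hepatocyte identity genes were close to control levels in their sum and their median, but not in every member. Summed over 26 identity genes, the level was 190000 to 216000 CPM in the controls and 193000 to 225000 CPM in LATS KO 4-6. Of the 26, 1 was called higher, Nr1i3, and 2 lower, Apob and Tat, with a median of -0.02. In edgeR 9 had an unadjusted p under 0.05, and 7 were called in DESeq2 and 10 in limma voom. Of all 11738 genes tested, 3332 had such a p, and 2287 and 4447 were called in DESeq2 and limma voom. The groups did not overlap for 5 members that were higher and 6 that were lower in LATS KO 4-6. Across all genes tested, 18.4% were separated as higher, and the share separated as lower was not counted. Nothing is read from these counts, and like counts of the lists below are to be read beside those of all genes. Tat, tyrosine aminotransferase, fell from 3402, 3402 and 3272 CPM to 1440, 1809 and 1737 CPM, a difference of -0.98 ± 0.14 (log2, SE; edgeR adjusted p = 0.0026). Apob, whose product packages lipoproteins, fell by 1.45 ± 0.27 (log2, SE), and its transcript is long, which bears on the trend with gene length given after the chaperones. Hnf4a, the master regulator of hepatocyte identity, lay lower in every LATS KO library without a call (edgeR adjusted p = 0.117). Nr1i3, the xenobiotic receptor CAR, was called higher, but not without LATS KO 4, LATS KO 5 or any 1 of the controls.

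In edgeR few genes of liver zonation were called. Of 18 tested pericentral genes 0 were called in edgeR, where 3 had an unadjusted p under 0.05, with 0 calls in DESeq2 and 6 in limma voom. Of 20 periportal genes 2 were called, Cyp2f2 and Slc25a15, both lower and both with calls that did not survive the loss of several single libraries (any LATS KO library, TdTomato 2 or TdTomato 3 for Cyp2f2, and LATS KO 4, LATS KO 5, TdTomato 2 or TdTomato 3 for Slc25a15). For the periportal genes 6 had an unadjusted p under 0.05 in edgeR, with 4 calls in DESeq2 and 9 in limma voom. Their summed level was 22500 to 27800 CPM in the controls and 18100 to 20200 CPM in LATS KO 4-6, without overlap. Glul, the pericentral glutamine synthetase, was at 162, 128 and 192 CPM and at 144, 303 and 298 CPM.

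Cholesterol synthesis was the list with the lowest median, -0.75, with 7 of 24 genes called lower, none higher and 4 to 10 lower with 1 library left out. Hsd17b7, an enzyme of the late pathway, fell from 110, 99.4 and 123 CPM to 45.2, 58.5 and 52.8 CPM, a difference of -1.06 ± 0.17 (log2, SE; edgeR adjusted p = 0.00392). Idi1, isopentenyl diphosphate isomerase, fell from 146, 99.4 and 190 CPM to 37.6, 60 and 55.5 CPM, and Lss, lanosterol synthase, from 147, 109 and 115 CPM to 52.7, 59.8 and 71.4 CPM.

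In lipid metabolism the calls were few. Elovl3, a fatty acid elongase under circadian and sex-dependent control, fell from 272, 165 and 251 CPM to 22.3, 30.1 and 53.5 CPM, a difference of -2.68 ± 0.33 (log2, SE; edgeR adjusted p = 0.00168). Cd36, a fatty acid transporter that macrophages and endothelium also express, rose from 13.3, 9.85 and 7.09 CPM to 99.9, 82.3 and 63.1 CPM. Fasn and Scd1, the lipogenic enzymes, were not called, and TdTomato 4 stood apart from the other 2 controls for both, at 331 CPM against 937 and 825 CPM for Fasn. Of 25 synthesis genes 1 was called higher, Cd36, and 3 lower (Acaca, Acacb and Elovl3), with 1 to 7 lower when 1 library was left out; 1 was reached without LATS KO 5 or TdTomato 2. Of 27 oxidation genes 2 were called higher, the acyl-CoA thioesterases Acot1 and Acot2, and none without LATS KO 4, LATS KO 5 or TdTomato 2. Of 27 glucose genes 5 were called higher: Hk1, Hk2, Hk3, Pkm and Ugp2, of which the first 4 are the hexokinases and the pyruvate kinase of cells other than hepatocytes; 3 were called without LATS KO 4, LATS KO 5 or TdTomato 2. Ppp1r3b, the glycogen-targeting phosphatase subunit, fell from 255, 250 and 218 CPM to 128, 131 and 99.7 CPM (edgeR adjusted p = 0.00519). Pck1 and G6pc, the hepatocyte enzymes of glucose output, were not called.

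Of 24 bile acid genes 2 were called higher (Abcc4 and Abcg5) and 2 lower (Abcb11, the bile salt export pump, and Cyp8b1). None of the 24 was called higher without LATS KO 5 or TdTomato 2, and none lower without LATS KO 5, LATS KO 6 or TdTomato 2. Of 24 xenobiotic genes 5 were called higher, and 3 without LATS KO 4, LATS KO 5, LATS KO 6 or TdTomato 3. Cyp7a1, the rate-limiting enzyme of bile acid synthesis, was at 35.2, 35.9 and 35.5 CPM and at 21.4, 40.3 and 27.6 CPM. Cyp2b9, a cytochrome of female liver, rose from 0.221, 0.159 and 0 CPM to 3.46, 1.82 and 0.841 CPM (edgeR adjusted p = 0.0146). Nuclear-encoded subunits of the respiratory chain gave 0 calls of 32 and ribosomal proteins 0 of 36 in edgeR, with medians of 0.09 and 0.14. In both lists 0 genes had an unadjusted p under 0.05 and 0 were called in DESeq2, while limma voom called 2 and 10. Of 19 tested sex-biased genes 2 were called higher, Cyp2b9 among them, and 2 lower (Elovl3 and Cyp2u1), and of 10 nuclear-retained or non-coding RNAs 1 was called, Mir22hg, which was higher, but not without LATS KO 5, LATS KO 6, TdTomato 2 or TdTomato 4. In edgeR 0 of 2 tested erythroid genes and 0 of 5 histone genes were called, with 0 and 2 at an unadjusted p under 0.05, 0 and 1 called in DESeq2 and 1 and 2 in limma voom. For the antioxidant targets of NRF2 the count was 3 of 20 tested, and 1 without LATS KO 4 or TdTomato 3, with Nqo1 and Gclc uncalled. Transcripts of the mitochondrial genome were not analysed here.

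Acute phase proteins are made by hepatocytes under IL-6. Of 29, 2 were called (Cd14 and Hamp), that of Hamp lost without LATS KO 5, LATS KO 6, TdTomato 2 or TdTomato 3. Cd14 is also among the 16 macrophage and monocyte markers called higher. TdTomato 4 stood apart from the other controls. Saa1 was at 194 and 208 CPM in TdTomato 2 and 3 and at 7255 CPM in TdTomato 4. In LATS KO 4, 5 and 6 Saa1 was at 637, 479 and 730 CPM. Lcn2 was at 7.12, 10.9 and 259 CPM in the controls and at 46.1, 45.5 and 42.7 CPM in LATS KO 4, 5 and 6. Without TdTomato 4 the difference turned from -2.06 to 1.65 for Saa1 and from -1.05 to 2.36 for Lcn2 (log2), and both then passed the test (edgeR adjusted p = 0.00317 and 0.00151).

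Some chaperone genes fell. Of 25 tested genes of the unfolded protein response, 6 were called lower and none higher: Canx, Dnajc3, Hsp90b1, Hspa5, Hyou1 and Pdia4, all residents of the endoplasmic reticulum. Hyou1, an oxygen-regulated chaperone, fell from 1064, 915 and 842 CPM to 335, 345 and 377 CPM, a difference of -1.38 ± 0.14 (log2, SE; edgeR adjusted p = 0.000795). Ddit3, the stress factor CHOP, overlapped between the groups. The count was 1 without LATS KO 5 and at most 10 with any other library left out, and the calls of Pdia4 and Dnajc3 were lost without LATS KO 5, that of Hspa5 without LATS KO 4, LATS KO 5, TdTomato 2 or TdTomato 4.

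Heat shock chaperones gave 6 falls of 18 and no rise, with a median of -0.63 and 4 to 10 falls with 1 library left out. The count of 4 was reached without LATS KO 5. Hsph1, a nucleotide exchange factor of HSP70, was at 192, 122 and 228 CPM in the controls and at 44.3, 48.2 and 51.5 CPM in LATS KO 4, 5 and 6, a difference of -1.89 ± 0.24 (log2, SE; edgeR adjusted p = 0.00177). Hsp90aa1, the inducible HSP90, fell from 438, 340 and 685 CPM to 144, 148 and 180 CPM, and Stip1, the co-chaperone that joins HSP70 to HSP90, from 188, 163 and 262 CPM to 76.7, 97.2 and 79.2 CPM. Fkbp4, Hsp90ab1 and Hspa8 were the other 3. The inducible Hspa1b, at 13.6, 7.62 and 74.5 CPM and 6.18, 6.47 and 2.52 CPM, was not called (edgeR adjusted p = 0.0643).

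Gene length moved with these falls. Of 1786 tested genes with over 6000 exon bases, 227 (12.7%) were called lower, with a median difference of -0.30, and of 1497 genes with up to 1500 bases 6 (0.401%), with a median of 0.21. Among genes of at least 10 CPM in the controls the shares were 16.5% and 0.212%. The trend was steepest in LATS KO 6, whose median level ran from 0.489 at up to 1500 bases to -0.447 over 6000. It did not follow the groups alone. The control TdTomato 4 ran the same way, from 0.339 to -0.265, and LATS KO 4 was nearly flat, from 0.018 to -0.112. LATS KO 5 ran from 0.212 to -0.322, and TdTomato 2 and 3 ran the other way. Offsets fitted to the trend in each library brought the medians of the 5 length classes to between 0.02 and 0.05, while the share called lower still rose from 2.2% up to 1500 bases to 6.77% over 6000. With them, 9 unfolded protein genes, 8 heat shock genes and 10 cholesterol genes were called lower. The calls of Taok1 and Fras1 ended under the offsets (edgeR adjusted p = 0.219 and 0.138).

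Clock genes moved in opposite directions. In the liver CLOCK and ARNTL (BMAL1) drive the genes of their own repressors and of the output factors through E-boxes, so that Arntl and Dbp peak at opposite times of day. Of 20 clock and output genes, 6 were called higher (Bhlhe40, Bhlhe41, Ciart, Dbp, Per3 and Tef) and 3 lower (Arntl, Clock and Cry1). Dbp, an output factor, rose from 35.9, 51.2 and 41.0 CPM to 244, 267 and 184 CPM, a difference of 2.48 ± 0.21 (log2, SE; edgeR adjusted p = 0.000593). Bhlhe41, a repressor, rose from 6.23, 6.91 and 4.26 CPM to 25.3, 18.8 and 17.6 CPM, and Ciart from 1.21, 2.46 and 1.48 CPM to 14.4, 14.8 and 7.03 CPM. Clock fell from 87.3, 81.6 and 63.2 CPM to 25.8, 20.8 and 32.8 CPM (edgeR adjusted p = 0.00196). Arntl fell from 30.2, 14.6 and 11.7 CPM to 2.41, 2.23 and 6.91 CPM, a call lost without LATS KO 5 or TdTomato 2. The labels give no hour of collection, so the hour and the knockout cannot be told apart. In LATS KO 1 and 2, Dbp was at 14.9 and 10.2 CPM, below the controls, and with these 2 added no clock gene was called higher.

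The palindromic E-box CACGTG stood in 4 of 6 promoters (66.7%) of the 5 matched clock genes called higher and in 1 of 6 (16.7%) of those called lower, against 6.02% of all promoters and 8.38% of those of tested genes. Over all 20 members of the list, called or not, it stood in 6 of 22 promoters (27.3%). The Ciart promoter (chr3:95882229-95882478, minus strand) is shown for its 3 E-boxes, in capitals, at 116, 58 and 44 bases before the start.
Ciart: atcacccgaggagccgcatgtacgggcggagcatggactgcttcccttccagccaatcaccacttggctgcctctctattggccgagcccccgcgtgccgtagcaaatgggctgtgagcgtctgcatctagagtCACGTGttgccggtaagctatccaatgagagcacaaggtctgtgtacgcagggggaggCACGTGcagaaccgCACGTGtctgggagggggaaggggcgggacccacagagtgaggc

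**Figure D4:**
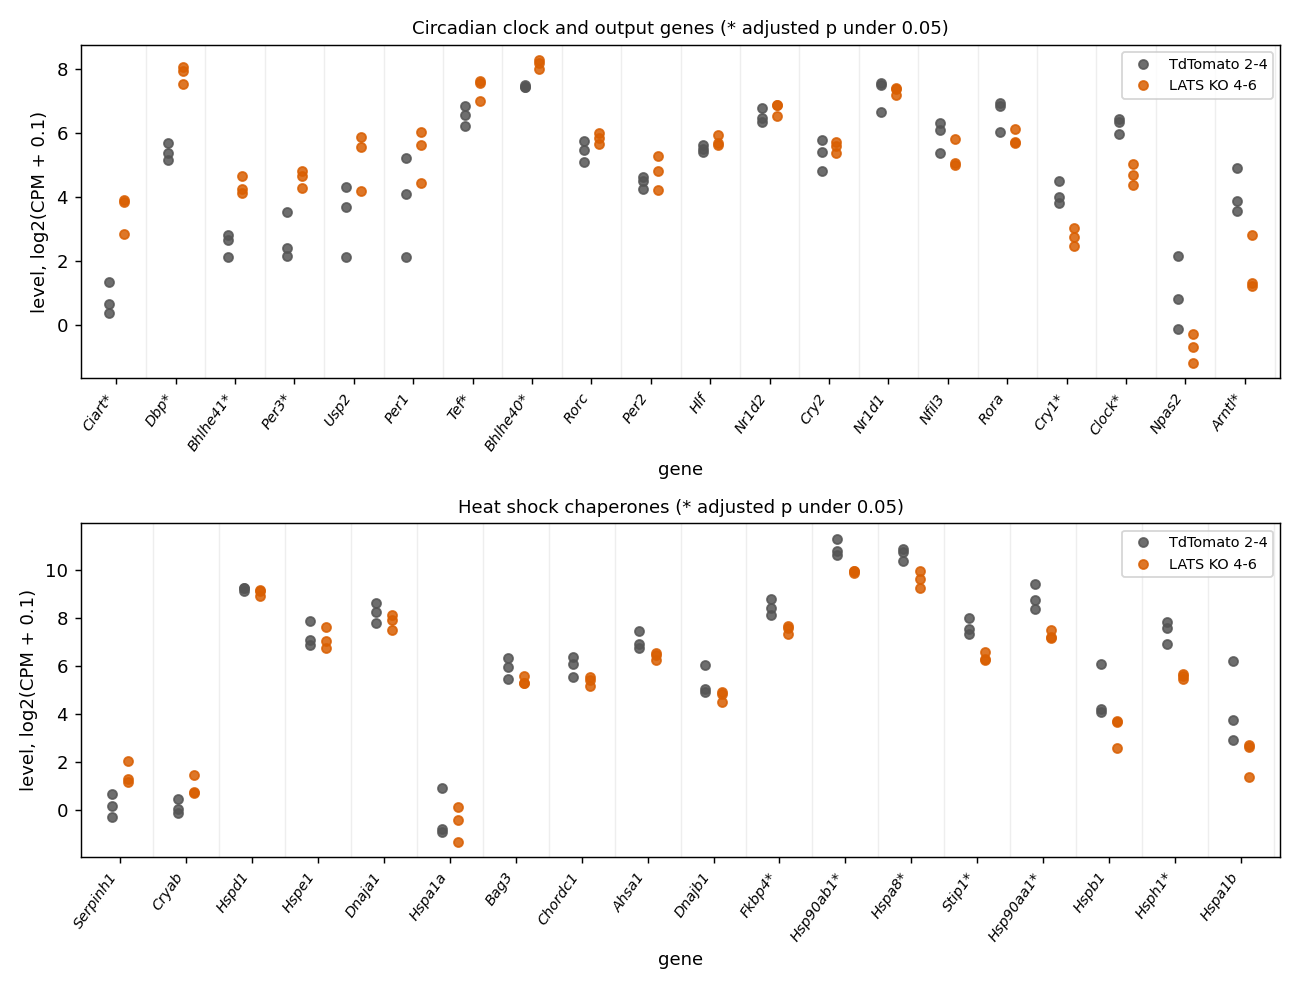
Level, as log2(CPM + 0.1), of each clock gene (top) and heat shock chaperone (bottom) in the 3 TdTomato and 3 LATS KO libraries, ordered by the difference; each point is 1 library and an asterisk marks a call. Dbp and Ciart lie higher and Clock and Arntl lower in all 3 LATS KO libraries, and the 6 called chaperones lie lower in each.

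The largest falls were chosen by the same rule as the largest rises. Lrit1 (chr14:37054830-37064946), a retinal leucine-rich repeat protein on the chromosome of Lats2, fell from 12.6, 13.8 and 6.99 CPM to 0.219, 0.540 and 0.120 CPM, a difference of -5.23 ± 0.49 (log2, SE; edgeR adjusted p = 0.000719). Rnaset2b on chromosome 17 fell from 26.4, 25.7 and 31.4 CPM to 0.789, 1.62 and 0.421 CPM, but its near-identical copy Rnaset2a makes its count uncertain. Serpine2, a protease inhibitor, fell from 49.1, 43.5 and 71.9 CPM to 8.68, 6.07 and 9.61 CPM, and Map3k13, a stress kinase, from 16.0, 17.8 and 16.2 CPM to 2.46, 5.67 and 2.34 CPM. Elovl3, Arntl, Ces2c, Fras1, Lmbrd2, Loxl4, Robo1 and Ugt2b37 completed the 12. The calls of Arntl, Lmbrd2, Robo1 and Ugt2b37 were lost without 1 or 2 single libraries (LATS KO 5 for Lmbrd2, LATS KO 4 or 5 for Ugt2b37, LATS KO 6 or TdTomato 2 for Robo1), that of Fras1 without LATS KO 4, LATS KO 5, TdTomato 2 or TdTomato 3, and that of Loxl4 without LATS KO 5, LATS KO 6, TdTomato 2 or TdTomato 3. Loxl4, a matrix oxidase, was at 10.9, 9.69 and 4.45 CPM in the controls, at 3.07, 0.742 and 1.98 CPM in LATS KO 4, 5 and 6 and at 52.6 and 63.9 CPM in LATS KO 1 and 2.

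Of the 27 falls of over 4-fold, 5 lay on chromosome 14 within 21 Mb of the start of Lats2, where 230 genes were tested; the window was chosen after the values were seen. Beside Lrit1 these were Lrit2, Sall2, Cebpe and Ppp1r3e, named for the same reason. Cebpe, a granulocyte transcription factor, was at 7.34, 9.85 and 8.47 CPM in the controls and at 0.0877, 0 and 0.0601 CPM in LATS KO 4, 5 and 6, a ratio of 152 on 3 reads with an exact 95% counting interval of 51.7 to 741. Sall2 fell from 6.23, 6.67 and 4.31 CPM to 0.526, 0.405 and 0.781 CPM. LATS KO 1 and 2 also lay below every control, at 0 and 0.0307 CPM for Cebpe and 1.35 and 1.23 CPM for Sall2, the latter above LATS KO 4, 5 and 6. Around Lats1, 1 of 78 tested genes in a window of the same size had such a fall, Raet1d, with a difference of -3.68 (log2).

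To place these libraries beside direct YAP expression, LATS KO 4-6 were set against Yap OE 1-5 in a fit of 11 libraries (TdTomato 2-4 included). Of 13116 genes tested, 3128 were higher in LATS KO 4-6 (23.8%) and 3300 lower (25.2%). Of 25 tested YAP/TEAD targets 21 lay below Yap OE and none above, a direction that the choice of these 3 libraries favours. Of Hippo components 16 of 26 were lower, of cholangiocyte markers 12 of 17, of matrix genes 21 of 27 and of stellate genes 9 of 20, with none higher in any of these lists. Sox9, for example, stood at 63.9 to 92.0 CPM in Yap OE, and Ccnd1 at 616 to 1052 CPM. The Hippo list holds Yap1, the gene over expressed in Yap OE, and the YAP/TEAD targets Amotl1, Lats2 and Tead1. The cholangiocyte list holds the YAP/TEAD target Spp1. For these members too the direction was favoured in advance.

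Of 24 mitosis genes 6 were lower than in Yap OE, close to the 25.2% of all genes tested, and of 24 replication genes 18. Whether the lists differ in this was not tested. Mki67 was at 19.4 to 79.5 CPM in Yap OE and was not called. Without scaling for composition 17 of 24 mitosis genes were lower, and with the library numbers as a block none. For MHC class II no gene of 7 was called. For Kupffer cell genes 3 of 13 were higher in LATS KO 4-6, close to the 23.8% of all genes tested. Clec4f, for instance, was at 49.5 to 146 CPM in Yap OE, which overlaps LATS KO 4-6.

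Endothelial genes were higher than in Yap OE for 12 of 25 members and lower for none; without scaling for composition 6 were higher and 2 lower. Bmp2 was at 5.23 to 9.11 CPM in Yap OE against 17.0 to 18.3 CPM, a difference of 1.27 (log2; edgeR adjusted p = 0.000116). Hepatocyte functions were also higher, with 19 of 26 identity genes, 18 of 20 periportal genes and 32 of 32 respiratory chain subunits; without scaling for composition these counts were 14, 15 and 24. Cyp2f2, a periportal cytochrome, was at 2026, 2073 and 2101 CPM in LATS KO 4, 5 and 6 and at 50.4 to 215 CPM in Yap OE.

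The 6 largest differences from Yap OE in each direction were taken by the same rule. Abhd1, a hydrolase of unclear role, was at 46.8, 31.8 and 55.9 CPM in LATS KO 4, 5 and 6 and at 1.79, 0.963, 0.786, 1.72 and 1.57 CPM in Yap OE 1 to 5, a difference of 5.03 ± 0.30 (log2, SE; edgeR adjusted p = 9.79e-07), and at 2.37, 3.02 and 1.53 CPM in the controls. Tiam2, Tmc5, Serpina4-ps1, Cyp4a14 and Hsd3b5 were the other 5 of the 6 highest. Tiam2, an exchange factor for RAC, was at 24.0, 26.2 and 35.6 CPM against 0.585 to 1.72 CPM, close to its controls at 38.8, 35.7 and 28.8 CPM. At the other end, Psca, a surface antigen of epithelia, was at 0.175, 0 and 0 CPM against 46.5 to 150 CPM. Sftpd, a collectin, was at 0.833, 1.01 and 0.180 CPM against 220 to 394 CPM, and Fgfbp1, a carrier of fibroblast growth factors, at 1.80, 0 and 0.120 CPM against 119 to 277 CPM. Ogn and Myo5c had no read in LATS KO 4-6 and were at least 238-fold and 181-fold lower than in Yap OE, with 3 reads over the group as the floor. H19, an imprinted fetal RNA, had 1 read, a ratio of 731 with an exact 95% counting interval of 131 to 28890.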

How the data were processed

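Bulk poly(A) RNA from 15 mouse liver libraries was measured. Per the submitters' processing notes, reads were checked with FastQC, trimmed with Trimmomatic and aligned with STAR to mm10; the versions are not given in the sources used here. The deposited tables hold raw counts per gene from STAR, and the column of the reverse strand was used, since the forward column held about 1% of the counts of both. Lines naming no gene made up 20.5% to 47.5% of the reads of the 6 libraries and were left out.

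The members, gene lists and tests were chosen with earlier results of these data known. The main fit was edgeR 4.0.16 (R 4.3.3) on the 6 libraries with TMM scaling, filterByExpr and the quasi-likelihood test, leaving 4 residual degrees of freedom; Yap OE was compared in a fit of 11 libraries with 8. The scripts were tested on simulated data. Genes named are Lats1, Lats2, Yap1, Wwtr1, the lead genes and up to 3 smallest p-values of each of 39 lists, the 12 largest rises and falls at a mean of at least 5 CPM with separate groups, leaving aside genes of the sex chromosomes and mitochondria, clone-named genes, globins and antigen receptors, and the 6 largest differences each way from Yap OE. Lrit2, Sall2, Cebpe, Ppp1r3e, Raet1d and the other members of lists given beside a count were named after their values were seen; a few genes that the rule names are not reported here. Exon lengths and positions came from GENCODE M21 and promoters from RefSeq. Of 832 list symbols, 19 had no entry in the tables. Alternatives were other scalings (RLE factors, library size without scaling for composition), DESeq2 1.42.0, limma 3.58.1 voom with quality weights, other filters and strands, length offsets, the library number as a block, other sets of libraries and each library left out; the set with LATS KO 1 and 2, the length offsets, each Yap OE library left out and the motifs other than the TEAD core were added after seeing the data. Intervals cover counting error only.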

Additional observations from a re-analysis of the deposited data

Results flagged for a closer look

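Reads mapped outside any annotated gene, which enter no comparison, made up 17.2%, 25.8% and 20.8% of mapped reads in LATS KO 4, 5 and 6, above the highest control at 9.93%. Reads that map to several places made up 11.2%, 11.7% and 14.3% of mapped reads in the same libraries, above the highest control at 9.14%. LATS KO 1 and 2 lay within or below the range of the controls, at 7.05% and 6.57% outside genes and 5.85% and 5.35% at several places.

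Cyp4a14, a fatty acid hydroxylase, was at 1.33 CPM in Yap OE 2, apart from the other 4 Yap OE libraries at 0.179 to 0.486 CPM. By chance about 1 in 20 groups shows such a gap, and 40 genes were looked at.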

How the results depend on the processing

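With 3 libraries against 3 and levels under 0.5 CPM in the controls for 534 of the genes called higher, fold changes of such genes rest on few reads.

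For LATS KO 4-6 against TdTomato 2-4, the 1671 calls (1182 higher, 489 lower) became 4447 (2536 and 1911) with limma voom, and 957 genes were lower with DESeq2, where 58.2% of calls were higher against 70.7%. All libraries as labelled gave 1 call (0 higher and 1 lower; 2013 genes at an unadjusted p under 0.05), and LATS KO 1, 2, 4, 5 and 6 gave 767 (622 and 145), of which 717 were among the 1671. Each library left out in turn gave 974 to 2386 calls (974 without LATS KO 5, 1015 without TdTomato 2), 845 to 1362 higher and 129 to 1024 lower. Other scalings, filters, strands and length offsets stayed within 1.5 times of the main counts.

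Against Yap OE, library size without scaling for composition gave 1203 higher and 7112 lower and moved the median of all genes from -0.03 to -0.66; each library left out gave 5206 to 7133 calls (2578 to 3256 higher and 2607 to 3877 lower).

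Directions reversed for Lcn2 (2.09 with voom; -1.61 to 2.36 with 1 library left out, the latter without TdTomato 4), Saa1 (-2.62 to 1.65 with 1 left out, the latter without TdTomato 4), Loxl4 (1.29 as labelled, 1.57 with LATS KO 1, 2, 4, 5 and 6) and Nr1i3 (-0.26 as labelled); against Yap OE, library size alone reversed Ifit3 (-0.41) and Pdia4 (-0.17), and the replicate block reversed Lmbrd2 (0.76). The cause was not tested.

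The library numbers are shared by TdTomato 4 and LATS KO 4 alone among these 6, and nothing says that a number pairs libraries. With the number as a block in the fit of 11 libraries, 1943 genes were called (1450 higher and 493 lower), 1017 of them among the 1671, and against Yap OE 5557 (2828 higher and 2729 lower).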
